A study of Mus musculus with 61 samples.

Results

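Levels of mRNA were followed for 10 genes of the fibroblast growth factor (FGF) pathway in stembryos, or gastruloids, which grow from aggregated mouse embryonic stem cells and elongate in culture. The genes were 7 FGF ligands (Fgf3, Fgf4, Fgf5, Fgf8, Fgf15, Fgf17 and Fgf18) and 3 targets of the kinase ERK (Dusp6, Spry4 and Etv4). They were selected in the tables by symbol and make up 10 of the 55052 genes in the deposited expression tables. All 10 passed the filter on low values that is described with the processing. The 61 RNA-seq libraries come from 28 conditions, each a genotype at a stage.

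FGF ligands are secreted proteins that bind receptor tyrosine kinases, and the bound receptor signals through RAS, RAF and MEK to ERK. Active ERK raises the transcription of ETS factors such as Etv4 and of inhibitors that act back on the same pathway, among them Dusp6, a phosphatase of ERK, and Spry4, a Sprouty protein that dampens signalling from the receptors. In the mouse embryo, Fgf5 marks the epiblast, Fgf4 and Fgf8 are expressed in the epiblast and primitive streak, and Fgf8 and its close relatives Fgf17 and Fgf18 are expressed in the tail bud. The embryonic stem cells of the study had been kept in a medium with a MEK inhibitor, which blocks the activation of ERK, before they were aggregated.

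The wild-type line was EmbryoMax 129/SVEV, and aggregates received the GSK-3 inhibitor Chiron, which activates Wnt signalling, in a pulse that ended at 72 h. The wild-type time course had 2 libraries at each of 8 stages, every 12 h from 72 h to 144 h after aggregation and at 168 h. A further 10 wild-type libraries were not part of it, with 4 each from 96 h and 120 h and 2 from 144 h; they are called wild type outside the time course. The 8 mutant lines all carry changes in or beside the HoxD cluster on chromosome 2, and none of the 10 genes lies on that chromosome. Del(CBS1), Del(CBS2) and Del(CBS4) each lack 1 binding site of the insulator protein CTCF, Del(CBS1-2) was made on Del(CBS1) cells and lacks the first 2 sites, and Del(CBS1-5) lacks the first 5. Del(d1-d4) lacks Hoxd1 to Hoxd4, Del(sub-TAD1) lacks a neighbouring regulatory domain, and Ins(2xCBS-d4d8) carries a cassette with 2 additional CTCF sites 5′ to CBS1. Mutants were collected at 96 h and 120 h, except Del(CBS4) at 120 h and 144 h and Del(CBS1-5) at all 3 stages. Each condition had 2 libraries, and Del(sub-TAD1) at 96 h had 3. Blastocysts of mutant mice with a mixed background were the source of Del(CBS1-5) and Del(sub-TAD1), and the second line also carries a transgene that replaces Mtx2, so genotype and origin of these lines cannot be told apart. The remaining lines were clones of edited wild-type cells. Each library came from a pool of stembryos, and from 108 h onwards only elongating stembryos without apoptosis were collected. In whole stembryos, fewer cells that express a gene and less mRNA of that gene per cell cannot be told apart.

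Values are FPKM as the authors deposited them, that is, fragments of a gene relative to its transcript length and to all mapped fragments of the library. Depth is not part of the tables. From the confidence bounds in them it was inferred as 14.4 to 37.3 M fragments per library (median 23.0 M), and values of no more than 3 fragments were taken as not detected. This limit covers counting error only. Fgf5 was at or under it in 5 libraries and Fgf18 in 1, and the other 8 genes were above it in every library. The libraries fell into 2 sets that do not overlap in the summed level of mt-Co2, mt-Co3, mt-Nd3 and mt-Atp8, at 3321 to 8877 FPKM in set 1 (28 libraries) and at 1.10 to 10.3 FPKM in set 2 (33 libraries). Set 2 held the time course, wild-type replicate 4 of both stages with 4 replicates, all libraries of 144 h, Ins(2xCBS-d4d8), Del(CBS4) and the 96 h libraries of Del(sub-TAD1), and set 1 held all others. The difference was wider than these 4 mRNAs. Genes with Gm or ps symbols summed to 114953 to 150082 FPKM in set 1 and to 8705 to 25893 FPKM in set 2. Over the genes that passed the filter, wild-type replicate 4 at 96 h had a log2 SD of 1.49 to 1.54 from replicates 1 to 3. Among replicates 1 to 3 this SD was 0.553 to 0.757. In the time course, replicate 2 at 96 h stood apart from replicate 1, with Fos at 53.6 against 6.48 FPKM and Aldh1a2 at 841 against 330 FPKM. Hoxd1 and Hoxd4 were listed at 0 in all 4 libraries of Del(d1-d4), and in the wild-type libraries outside the time course Hoxd1 stood at 1.69 to 17.6 FPKM and Hoxd4 at 20.6 to 35.4 FPKM.

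Promoter sequences of 5 of the 10 genes were taken from RefSeq for GRCm38.p6 (Fgf3, Fgf4, Fgf5, Fgf18 and Dusp6). The 250 bases before the start site are shown for 4 ligands, because Fgf3 and Fgf4 are neighbours that both peaked at 84 h, Fgf5 was highest at the first stage, and Fgf18 was the last to rise. Capitals mark a match to 1 of 3 motifs searched on both strands, namely the ETS core CCGGAA, the TCF/LEF core CTTTGA and the TATA box TATAAA. These letters were present, on either strand, in 12.0%, 13.8% and 12.4% of 32851 mouse promoters of the same length, and no motif overlaps another. The windows are chr7:144838362-144838611 (plus strand) for Fgf3, chr7:144861136-144861385 (plus strand) for Fgf4, chr5:98253934-98254183 (plus strand) for Fgf5 and chr11:33147401-33147650 (minus strand) for Fgf18.
Fgf3: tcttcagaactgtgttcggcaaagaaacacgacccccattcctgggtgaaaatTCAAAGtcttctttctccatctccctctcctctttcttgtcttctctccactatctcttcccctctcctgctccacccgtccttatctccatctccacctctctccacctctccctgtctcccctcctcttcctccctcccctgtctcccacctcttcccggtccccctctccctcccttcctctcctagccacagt
Fgf4: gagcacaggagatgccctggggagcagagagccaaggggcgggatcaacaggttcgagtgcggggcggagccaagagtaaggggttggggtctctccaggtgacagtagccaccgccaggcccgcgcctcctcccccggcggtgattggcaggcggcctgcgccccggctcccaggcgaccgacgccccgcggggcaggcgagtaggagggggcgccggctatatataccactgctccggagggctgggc
Fgf5: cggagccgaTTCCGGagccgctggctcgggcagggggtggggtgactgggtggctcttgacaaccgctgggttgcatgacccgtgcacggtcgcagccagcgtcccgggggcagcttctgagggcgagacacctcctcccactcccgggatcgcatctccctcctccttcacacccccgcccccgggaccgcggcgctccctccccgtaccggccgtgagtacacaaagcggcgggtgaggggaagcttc
Fgf18: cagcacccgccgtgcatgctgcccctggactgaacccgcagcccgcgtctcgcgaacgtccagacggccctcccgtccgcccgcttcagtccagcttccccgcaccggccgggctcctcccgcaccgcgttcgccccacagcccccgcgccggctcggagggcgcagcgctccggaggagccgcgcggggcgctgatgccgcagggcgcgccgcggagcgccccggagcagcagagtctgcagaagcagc
Fgf3 held 1 match to the TCF/LEF core, at position -197 from the start site, and Fgf5 held 1 match to the ETS core, at position -241. No match was found in the windows of Fgf4 and Fgf18, nor in that of Dusp6. The share of G and C was 55.2% for Fgf3, 71.2% for Fgf4, 70.8% for Fgf5 and 77.2% for Fgf18. The start sites that RefSeq gives for Fgf3, at 144838612, and Fgf4, at 144861386, lie inside the genes as the tables bound them, and so do both windows, with the match in Fgf3.

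In mm10, Fgf3 (ENSMUSG00000031074, chr7:144838083-144844436), Fgf4 (ENSMUSG00000050917, chr7:144847367-144865243) and Fgf15 (ENSMUSG00000031073, chr7:144896531-144900953) are neighbours on the plus strand of chromosome 7. Between Fgf3 and Fgf4 lie 2930 bases and between Fgf4 and Fgf15 31287 bases, and the 3 genes span 62871 bases. Fgf15 overlaps the antisense genes Gm26793 and Gm39119, so the division of fragments among them is uncertain. The other ligands lie apart, Fgf5 (ENSMUSG00000029337) at chr5:98254184-98277030 on the plus strand, and Fgf8 (ENSMUSG00000025219) at chr19:45736798-45742915, Fgf17 (ENSMUSG00000022101) at chr14:70636203-70642268 and Fgf18 (ENSMUSG00000057967) at chr11:33117430-33147400 on the minus strand. Of the targets, Dusp6 (ENSMUSG00000019960) is at chr10:99263231-99267489 on the plus strand, Spry4 (ENSMUSG00000024427) at chr18:38586247-38601415 and Etv4 (ENSMUSG00000017724) at chr11:101769742-101785371, both on the minus strand. All 10 are annotated as protein coding.

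The time course asked which ligand is expressed at which stage. All 10 genes differed between stages (limma, F test over the 8 stages, Benjamini-Hochberg adjustment over all genes tested), where 61.8% of the 17098 genes tested did. In all tests below, log2(FPKM + 0.1) was fitted with limma, the standard error (SE) is that of the log2 change, and p-values were adjusted across every gene in the fit, with a threshold of 0.05. Since libraries came from pools and nothing in the labels names separate cultures, these p-values measure the spread between these libraries, which may be technical.

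Fgf5 and Fgf8 were highest at 72 h, when the Chiron pulse ended. Fgf5, the epiblast ligand, stood at 66.0 and 24.6 FPKM at 72 h in replicates 1 and 2, at 3.84 and 3.65 FPKM at 84 h, and at 0.0739 and 0.115 FPKM at 108 h. Both libraries at 72 h lay above every later one. The fall from 72 h to 84 h was 12.1-fold in the means, a log2 change of -3.39 (SE 0.75, adjusted p = 0.00114), and without replicate 1 it was -2.72 and not past the threshold. A further fall to 96 h, where Fgf5 stood at 0.169 and 1.96 FPKM, passed the test with a log2 change of -2.37 (SE 0.75, adjusted p = 0.0202), but not without replicate 1, where it was -0.86. At 108 h replicate 1 was at or under 3 fragments. At 120 h it stood at 0.31 and 0.12 FPKM, and from 132 h to 168 h between 0.86 and 1.81 FPKM. Fgf8, which is required for gastrulation, had the highest mean FPKM of the 7 ligands from 72 h to 120 h, at 155 and 63.8 FPKM at 72 h, 105 and 90.1 FPKM at 84 h and 103 and 32.4 FPKM at 96 h. It stood at 22.2 and 23.9 FPKM at 144 h and at 7.54 and 5.12 FPKM at 168 h. Of its 7 steps between neighbouring stages, that from 144 h to 168 h passed the test, a 3.64-fold fall in the means with a log2 change of -1.87 (SE 0.35, adjusted p = 3.07e-04). Without replicate 2 this call was lost. The mean at 72 h was 17.3-fold that at 168 h.

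Next came the 3 neighbours of chromosome 7, which rose together from 72 h to 84 h. Fgf3 stood at 3.86 and 0.606 FPKM at 72 h and at 26.3 and 24.2 FPKM at 84 h, an 11.3-fold rise in the means with a log2 change of 3.92 (SE 0.40, adjusted p = 2.61e-09). Fgf4, a ligand that signals in the inner cell mass and early epiblast, stood at 0.999 and 1.27 FPKM and then at 29.3 and 25.1 FPKM, a 23.9-fold rise with a log2 change of 4.47 (SE 0.40, adjusted p = 1.01e-10). Fgf15, the mouse counterpart of the human gene FGF19, stood at 3.50 and 1.68 FPKM and then at 34.4 and 29.8 FPKM, a 12.4-fold rise with a log2 change of 3.67 (SE 0.33, adjusted p = 1.53e-10). For each gene both libraries at 84 h lay above both at 72 h, and all 3 calls held without either replicate. In this step 6 of the 10 genes passed the test, against 16.3% of all genes tested, 5 of them higher at 84 h. The other genes that rose were Fgf17 and the target Spry4, and Fgf5 fell.

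After 84 h the 3 neighbours passed the test in different steps. From 84 h to 96 h 4 of the 10 genes passed the test, against 20.7% of all genes. Fgf4 fell to 18.7 and 5.09 FPKM, a log2 change of -1.46 (SE 0.40, adjusted p = 0.00662), which was -0.54 and not past the threshold without replicate 2. Fgf3, at 26.9 and 9.33 FPKM, and Fgf15, at 26.6 and 15.9 FPKM, did not pass it. At 120 h Fgf3 stood at 6.37 and 5.34 FPKM, Fgf4 at 2.74 and 2.55 FPKM and Fgf15 at 10.5 and 5.11 FPKM. Fgf15 then rose from 4.43 and 6.68 FPKM at 132 h to 13.5 and 13.0 FPKM at 144 h, a 2.38-fold rise with a log2 change of 1.27 (SE 0.33, adjusted p = 0.0181), and it was the 1 gene of the 10 to pass the test in that step, against 5.42% of all genes. This call was lost without either replicate. At 168 h Fgf15 was at 9.89 and 10.5 FPKM, whereas Fgf3 had fallen to 1.21 and 0.968 FPKM and Fgf4 to 1.09 and 0.397 FPKM. Their log2 changes from 144 h were -1.77 (SE 0.40, adjusted p = 0.00289) and -1.84 (SE 0.40, adjusted p = 0.00168), and the first was lost without either replicate and the second without replicate 2.

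Fgf17 and Fgf18, which are close relatives of Fgf8, reached their highest means at 108 h. Fgf18 stood at 0.362 and 0.411 FPKM at 72 h and at 0.0581 and 0.402 FPKM at 84 h, of which the first value is at or under 3 fragments. At 96 h it was at 11 and 8.35 FPKM, a 42-fold rise in the means with a log2 change of 5.10 (SE 0.55, adjusted p = 6.86e-09), which held without either replicate. At 108 h it had risen again, to 31.7 and 35.5 FPKM, a log2 change of 1.80 (SE 0.55, adjusted p = 0.0312) that was lost without either replicate. Both libraries at 108 h lay above all other time-course libraries of this gene. From 108 h onwards it stood at 23.6 and 25.5 FPKM at 120 h, 12.7 and 12.5 FPKM at 144 h and 3.60 and 3.73 FPKM at 168 h. Fgf17 was already at 5.90 and 5.95 FPKM at 72 h and at 84 h had risen to 15.1 and 15.6 FPKM, a log2 change of 1.36 (SE 0.42, adjusted p = 0.0210) that was lost without either replicate. It stood at 24.0 and 4.75 FPKM at 96 h and at 27.0 and 35.0 FPKM at 108 h. The test called this a rise with a log2 change of 1.51 (SE 0.42, adjusted p = 0.0163), but without replicate 2, the library with 4.75 FPKM, the change was 0.17 and not past the threshold. From 108 h to 144 h Fgf17 ranged from 15.7 to 35.0 FPKM, and at 168 h it fell to 5.22 and 3.59 FPKM. This last fall had a log2 change of -2.64 (SE 0.42, adjusted p = 2.57e-05) and held without either replicate. The step from 96 h to 108 h had 2 calls among the 10 genes, against 9.45% of all genes.

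The 3 ERK targets were expressed from the first stage on. Dusp6 stood at 117 and 89.8 FPKM at 72 h, 87.0 and 87.4 FPKM at 84 h, 72.5 and 70.3 FPKM at 108 h, 45.9 and 45.7 FPKM at 144 h and 28.6 and 25.5 FPKM at 168 h, a 3.82-fold range in the means. Its libraries at 72 h lay above those at 108 h and at all later stages. Etv4 was at 41.3 and 41.2 FPKM at 72 h, 75.4 and 67.0 FPKM at 84 h, 33.3 and 30.3 FPKM at 144 h and 10.4 and 7.50 FPKM at 168 h, a 7.97-fold range. Spry4 had the widest range of the 3, 23.2-fold, at 16.1 and 11.2 FPKM at 72 h, 31.5 and 25.6 FPKM at 84 h, 3.93 and 4.03 FPKM at 120 h and 1.17 and 1.30 FPKM at 168 h. Spry4 passed the test in 4 steps. It rose from 72 h to 84 h, with a log2 change of 1.08 (SE 0.28, adjusted p = 0.00526), and fell from 84 h to 96 h by 1.46 on the log2 scale (SE 0.28, adjusted p = 1.58e-04). From 108 h to 120 h it fell by 1.02 (SE 0.28, adjusted p = 0.0202), the 1 call among the 10 genes in that step, against 7.06% of all genes. The first and last of these calls were lost without either replicate, and the other without replicate 2. At 96 h, replicate 2 was lower than replicate 1 for all 3 targets, at 46.3 against 101.4 FPKM for Dusp6, 21.2 against 81.6 FPKM for Etv4 and 6.13 against 17.2 FPKM for Spry4.

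Between 120 h and 132 h none of the 10 genes passed limma's test, against 2.46% of all genes. An unadjusted p under 0.05 was found for 2 of them, against 2315 of the 17098 genes tested. The last step, from 144 h to 168 h, had the most calls. Of the 10 genes, 8 fell, against 9.87% of all genes that passed the test in either direction, and these were all but Fgf5 and Fgf15. The median log2 change of the 10 genes was -1.76, whereas that of all genes tested was 0. Dusp6 fell by 0.76 on the log2 scale (SE 0.20, adjusted p = 0.00960), Spry4 by 1.15 (SE 0.28, adjusted p = 0.00471), Etv4 by 1.84 (SE 0.29, adjusted p = 2.43e-05) and Fgf18 by 1.76 (SE 0.55, adjusted p = 0.0336). The calls of Fgf17 and Etv4 held without either replicate, those of Fgf4 and Fgf8 held without replicate 1 only, and those of the other 4 genes were lost without either. Over the same interval the summed level of 7 spinal cord markers went from 70.6 to 73.2 FPKM to 253 to 257 FPKM, and that of 6 markers of neuromesodermal progenitors from 163 to 166 FPKM to 45.0 to 51.8 FPKM. Their part in the result was not tested.

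**Figure D1:**
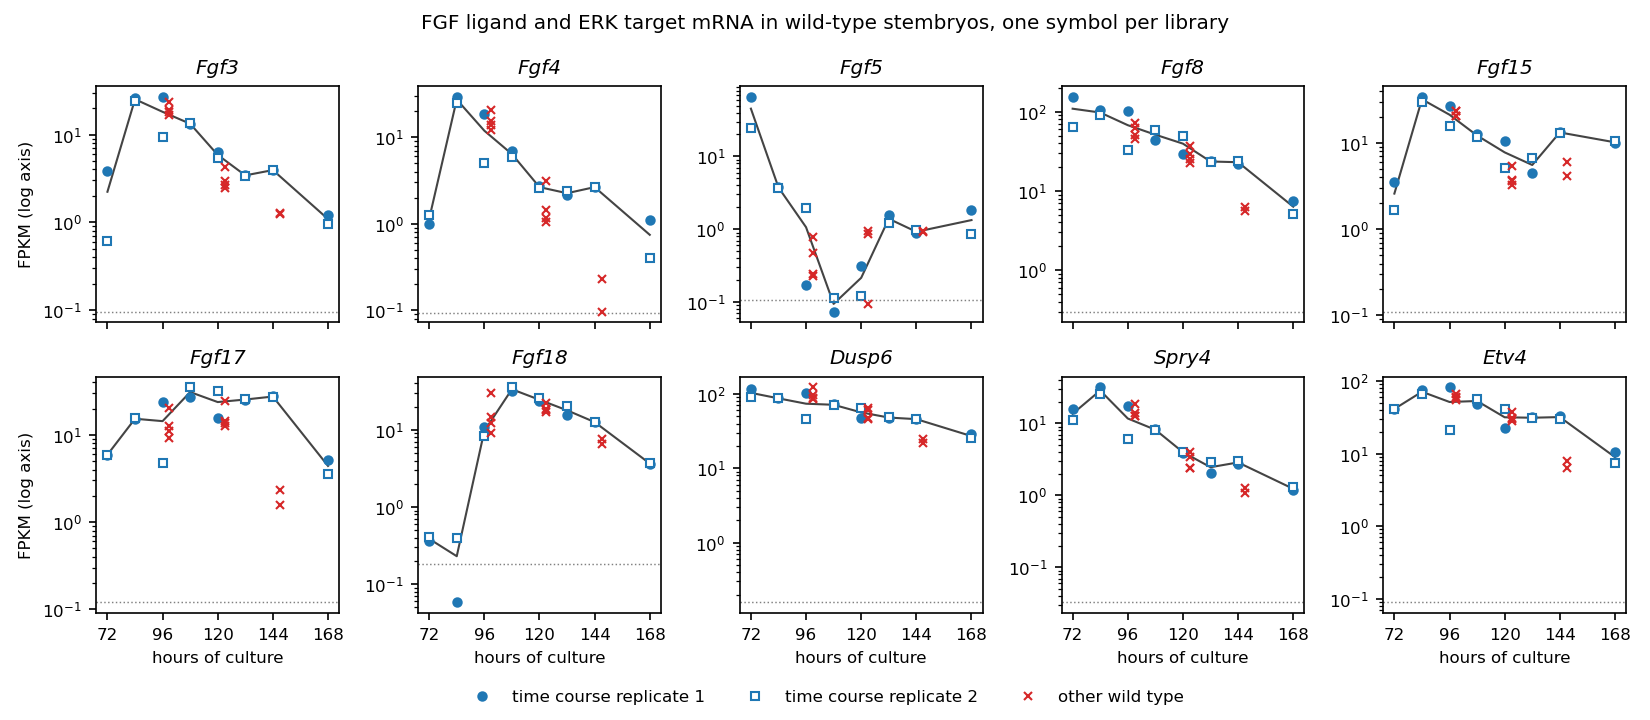
FPKM (log axis) of the 10 genes against hours of culture in wild-type stembryos, with filled circles for time-course replicate 1, open squares for replicate 2, red crosses for wild-type libraries outside the time course, a line through the time-course means and a dotted line at the level of 3 fragments. Fgf5 and Fgf8 start high, Fgf3, Fgf4 and Fgf15 peak at 84 h, and Fgf18 rises from 84 h to 108 h. The crosses at 144 h lie below the time course for the 8 genes that passed the direct test there, against 21.5% of all genes. The wild-type value of Fgf5 at 120 h that is listed at 0 cannot be drawn on a log axis.

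The level of each ligand was also set against the sum over the 22 genes of the Fgf family in the tables. The 7 ligands made up 77.8% to 95.8% of this sum (median 91.3%) in the 61 libraries. In the time course the mean sum was 178 FPKM at 72 h, 211 FPKM at 84 h, 90.8 FPKM at 144 h and 35.2 FPKM at 168 h. The share of Fgf8 (means of 2 libraries) was 60.6% at 72 h, 46.3% at 84 h and 31.8% at 108 h. It was down to 25.4% and 17.8% at 144 h and 168 h. Fgf5 held 24.6% at 72 h and 1.8% at 84 h. Fgf3, Fgf4 and Fgf15 held 12.0%, 12.9% and 15.2% at 84 h. At 108 h Fgf17 and Fgf18 held 19.2% and 20.9%, and at 144 h Fgf17, with 30.3%, had the largest share. Fgf15 was the ligand with the largest share at 168 h, 29.1%. Shares are relative: in FPKM, Fgf15 stood at 13.5 and 13.0 at 144 h and at 9.89 and 10.5 at 168 h.

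**Figure D2:**
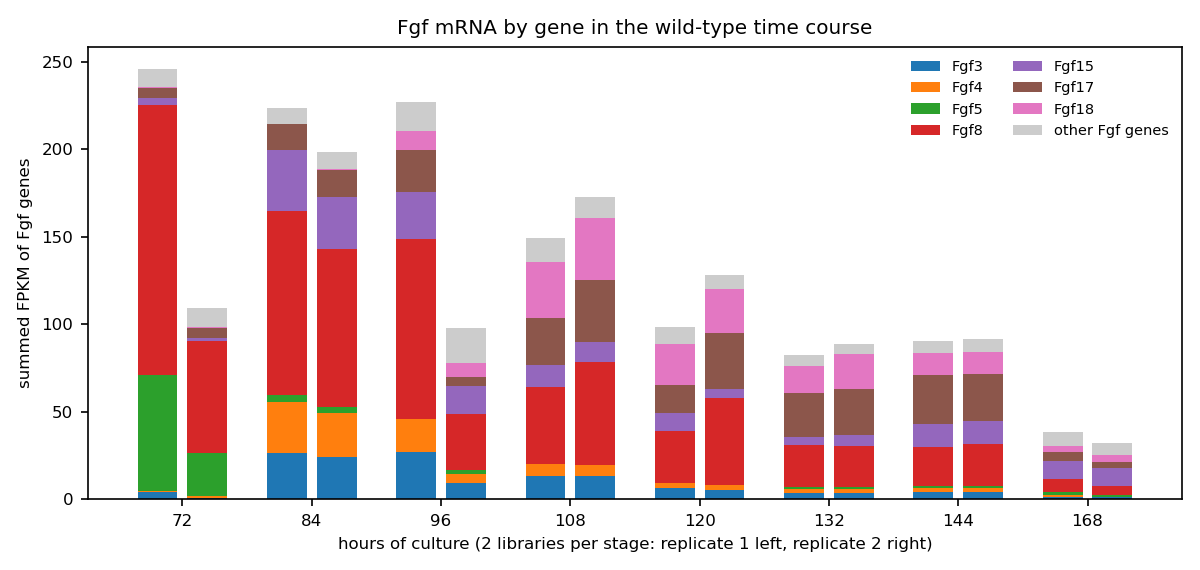
Summed FPKM of the Fgf genes in each time-course library, stacked by gene, with replicate 1 left and replicate 2 right at each stage. Fgf8 makes up most of the bars at 72 h, Fgf17 and Fgf18 have their highest means at 108 h, and the 2 libraries differ most at 72 h and 96 h.

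The levels of the receptors were read in the same libraries. Fgfr1, the receptor of highest level at every stage, was at a mean of 70.8 FPKM at 72 h, 123 FPKM at 96 h and 48.7 FPKM at 168 h. Fgfr2 went from 0.413 FPKM at 72 h and 1.08 FPKM at 84 h to 13.7 FPKM at 96 h, where it passed the test with a log2 change of 3.27, and was at 43.1 FPKM at 168 h. Fgfr3 was at 0.399 FPKM at 72 h, 5.17 FPKM at 144 h and 14.3 FPKM at 168 h, and rose in the last step with a log2 change of 1.48. Fgfr4 stayed between 0.0275 and 1.19 FPKM in the stage means. Fgfrl1, a receptor that lacks the kinase domain, stood at 6.17 FPKM at 72 h, 22.8 FPKM at 96 h and 28.8 FPKM at 168 h, and rose in both steps from 72 h to 96 h with log2 changes of 0.86 and 0.98.

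A list of the remaining genes of the pathway held 53 tested genes, namely 6 other ligands of 15, 6 receptors and co-receptors of 7, 23 feedback inhibitors and targets of 27, and 18 members of the signal relay of 19. In the F test over the 8 stages 6, 6, 23 and 14 of them passed, against 61.8% of all genes. From 72 h to 84 h, 11 of the 53 genes rose and 3 fell, where 16.3% of all genes passed, among them 7 and 2 of the feedback inhibitors and targets, with the largest rise in Phlda1 (log2 change 2.95) and the largest fall in Egr1 (-3.67), an immediate early gene of the ERK pathway. From 84 h to 96 h 10 rose and 12 fell, where 20.7% of all genes passed, and of the 23 feedback inhibitors and targets 4 rose and 8 fell, with Egr1 up by 3.40 and Fgf1 at -2.33 on the log2 scale at the extremes. Fos, another immediate early gene, was the largest change in the 3 steps from 96 h to 132 h, at -5.46, 5.75 and -5.65, and its replicates differed at 96 h and 120 h. It stood at 53.6 FPKM in replicate 2 at 96 h and at 41.3 FPKM in replicate 1 at 120 h, against 6.48 and 12.6 FPKM in the other replicate. From 96 h to 108 h 5 genes rose and 5 fell (9.45% of all genes passed), from 108 h to 120 h 6 and 3 (7.06%), from 120 h to 132 h 0 and 3 (2.46%), and from 132 h to 144 h 4 and 1 (5.42%). From 144 h to 168 h 4 rose and 6 fell (9.87% of all genes passed), with no rise and 5 falls among the feedback inhibitors and targets, and Etv5, the closest relative of Etv4 in the list, had the largest fall (log2 change -1.27). In that step the 53 genes had a median log2 change of -0.06.

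The genes whose time course was most like that of a member were taken by Pearson's r over the 16 time-course libraries, as a description of libraries that share stage and depth. For Fgf8 this was Dusp6 (r = 0.980) and for Dusp6 it was Fgf8, followed by Evx1 (0.975). Etv4 was most like Il17rd (0.974), an inhibitor of FGF signalling, and Spry4 most like Smc6 (0.982) and Wnt3a (0.971). Fgf3 was most like Rspo3 (0.968) and Cited1 (0.956), and Fgf4 like Rab8b (0.969). For Fgf5 it was Akap12 (0.959), for Fgf17 Exoc3l2 (0.954) and for Fgf15 Antxr1 (0.898), the lowest of the highest values.

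The wild-type libraries outside the time course gave the same stages in libraries that the time course had not used. From 96 h to 120 h 7 of the 10 genes fell and none rose, against 27.1% of all genes that passed the test. Fgf4 stood at 12.2, 13.7, 20.7 and 15.4 FPKM at 96 h and at 120 h it stood at 1.05, 1.18, 3.11 and 1.43 FPKM, a log2 change of -3.22 (SE 0.28, adjusted p = 2.33e-11). Fgf3 went from 16.7, 18.0, 23.6 and 18.9 FPKM to 2.63, 2.98, 4.30 and 2.46 FPKM, a change of -2.62 (SE 0.29, adjusted p = 3.67e-09). Fgf15 went from 20.5, 23.8, 23.6 and 20.7 FPKM to 3.69, 3.24, 5.42 and 3.66 FPKM, a change of -2.46 (SE 0.24, adjusted p = 1.89e-10). The stages did not overlap in any of these genes. Spry4 fell by 2.19 on the log2 scale (SE 0.20, adjusted p = 4.34e-11), Fgf8 by 1.03 (SE 0.25, adjusted p = 0.00157), Etv4 by 0.92 (SE 0.20, adjusted p = 6.57e-04) and Dusp6 by 0.84 (SE 0.14, adjusted p = 1.28e-05). Fgf5, Fgf17 and Fgf18 did not pass the test. All 7 calls held in each of the 13 alternatives, among them the fit without replicate 4, which leaves libraries of set 1 only. In limma's test of the difference between this change and that of the time course, 0 of the 10 genes passed, against 0.00585% of all genes. An unadjusted p under 0.05 was found for 5 of the 10, against 1076 of the 17098 genes tested.

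At 144 h the wild-type libraries outside the time course stood below the time course. From 120 h to 144 h 8 of the 10 genes fell, against 38.2% of all genes that passed the test, and these were all but Fgf5 and Fgf15. Fgf17 went from 14.6, 12.8, 24.5 and 13.6 FPKM to 1.56 and 2.34 FPKM, a log2 change of -2.98 (SE 0.36, adjusted p = 7.65e-08), and Fgf4 to 0.0961 and 0.227 FPKM, a change of -2.70 (SE 0.35, adjusted p = 2.19e-07). Fgf8 went from 28.9, 25.4, 36.7 and 22.3 FPKM to 5.61 and 6.36 FPKM, and Etv4 from 31.3, 29.9, 28 and 37.3 FPKM to 6.36 and 7.83 FPKM, with log2 changes of -2.2 and -2.14. The remaining log2 changes were -1.40 for Fgf18, -1.30 for Spry4, -1.20 for Dusp6 and -1.19 for Fgf3, of which those of Fgf18 and Fgf3 were lost without wild-type replicate 1 or 2. Wild-type replicate 4, the 1 library at 120 h in the same library set as those at 144 h, lay above both of these for each of the 8 genes. This library is part of the test that called them, and the share of all genes was not counted. In the time course Fgf17 was at 27.8 and 27.3 FPKM, Fgf4 at 2.65 and 2.64 FPKM, and Fgf8 at 22.2 and 23.9 FPKM at 144 h. The change from 120 h to 144 h differed between the 2 wild-type series for 5 genes, against 17.1% of all genes. The log2 change outside minus that in the time course was -3.28 for Fgf17 (adjusted p = 1.36e-04), -2.70 for Fgf4 (adjusted p = 7.97e-04), -2.21 for Etv4 (adjusted p = 1.87e-04), -1.47 for Fgf8 (adjusted p = 0.0290) and -0.92 for Dusp6 (adjusted p = 0.0163).

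Compared directly at 144 h, where both series are in set 2, 8 of the 10 genes were lower outside the time course, against 21.5% of all genes that passed the test. The log2 difference ran from -0.96 for Dusp6 (adjusted p = 4.93e-04) to -3.78 for Fgf17 (adjusted p = 5.66e-08), and was -3.44 for Fgf4 (adjusted p = 1.28e-07), -2.16 for Etv4, -1.93 for Fgf8, -1.56 for Fgf3, -1.39 for Fgf15 and -1.23 for Spry4. Fgf18 was also lower in both libraries and did not pass the test, and Fgf5 overlapped. At 120 h Fgf3 and Fgf15 were lower outside, by log2 differences of -0.93 and -0.88, against 30.1% of all genes, and at 96 h Dusp6 was higher by 0.50, against 32.3%. The call of Dusp6 rested on time-course replicate 2, without which the difference was -0.07. That of Fgf15 at 120 h was lost without time-course replicate 1 or wild-type replicate 2, and that of Fgf3 in each of the fits that left out 1 library except the one without wild-type replicate 3. At 96 h and 120 h most of the wild-type libraries that were not in the time course belong to set 1, so series and set cannot be told apart there. Libraries outside the time course at 144 h had an age of 156 h and 157 h when they were placed on the time course by 1000 genes of large variance between stages, the 10 genes left out. Their summed neuromesodermal progenitor markers were at 39.1 to 44.2 FPKM, against 163 to 166 FPKM in the time course at 144 h, and their pluripotency markers at 4.73 to 6.63 FPKM, against 40.2 to 43.7 FPKM. The part of these in the differences was not tested.

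The comparison of mutants with wild type asked whether the changes at the HoxD cluster came with changes of the 10 genes. As controls, each mutant had the wild-type libraries of equal stage that were not in the time course, and 28 of 170 tests passed the threshold, 14 higher and 14 lower in the mutant, against 12.1% of the tests over all genes. Fgf18 was lower in 6 of 17 comparisons, Fgf4 was higher in 3 and lower in 2, and Fgf15 likewise. With wild-type controls of the mutant's own library set, time course included, 11 of 170 passed, 4 higher and 7 lower, and 8 of these were called in the same direction with both sets of controls. The 8 were Fgf18 in Del(CBS1-2) at 96 h, Fgf3, Fgf4 and Fgf15 in Del(CBS4) and Fgf15 in Del(d1-d4) at 120 h, and Fgf4, Fgf5 and Spry4 in Del(CBS1-5) at 144 h. In this fit both wild-type series at 144 h form 1 group, so their difference enters the spread of every comparison. For Fgf4 in Del(d1-d4) at 120 h the SE was 0.35 with the first controls and 0.65 in this fit, and the log2 change was -2.48 and -2.51. A call lost in this fit thus need not mean a smaller change. With these controls, 0.216% of all genes passed in Del(CBS1), 0.228% in Del(CBS2), 0.626% in Del(d1-d4), 9.91% in Ins(2xCBS-d4d8), 11.9% in Del(CBS1-5) and 14.1% in Del(sub-TAD1) at 96 h, and 1.2%, 0.199%, 0.76%, 4.35%, 7.85% and 6.65% in the same lines at 120 h, with 0.608% in Del(CBS1-2). In the remaining comparisons with these controls, the share was 1% in Del(CBS1-2) at 96 h and 12.4% in Del(CBS4) at 120 h. At 144 h it was 30.7% in Del(CBS1-5) and 3.42% in Del(CBS4). The shares thus ran from 0.199% to 30.7%. The count of 11 of 170 was not tested against them and is not read as particular to the 10 genes. The mutants of a stage share their control libraries.

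**Figure D3:**
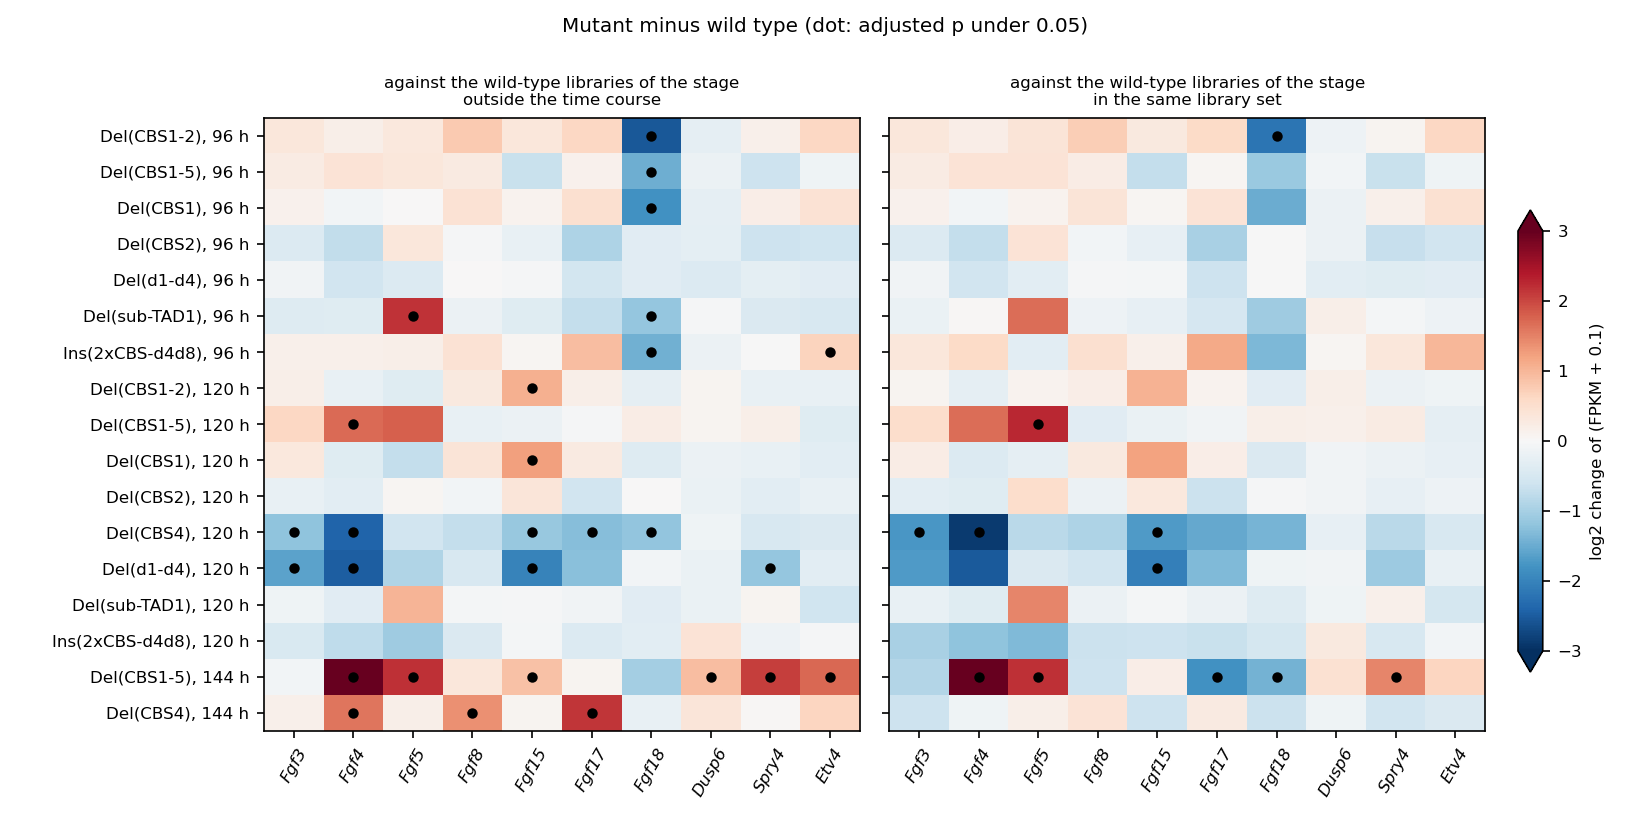
Log2 change of FPKM + 0.1 (colour, from blue for lower to red for higher in the mutant, limits at -3 and 3) for the 17 mutant conditions and 10 genes, with wild-type controls outside the time course on the left and wild-type controls of the same library set on the right. Dots mark an adjusted p under 0.05, of which there are 28 on the left and 11 on the right.

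At 96 h Fgf18 was the gene that differed most often. It was at 12.2, 14.9, 9.11 and 30.4 FPKM in wild type, at 3.90 and 4.44 FPKM in Del(CBS1), at 3.06 and 2.02 FPKM in Del(CBS1-2), at 5.18 and 5.61 FPKM in Del(CBS1-5), at 2.63 and 11.2 FPKM in Ins(2xCBS-d4d8) and at 21.2, 4.17 and 3.26 FPKM in Del(sub-TAD1). Both libraries of Del(CBS1), Del(CBS1-2) and Del(CBS1-5) lay below all 4 controls, and the other 2 mutants overlapped with them. The log2 change was -2.54 in Del(CBS1-2) (SE 0.47, adjusted p = 0.00154), where 4.49% of all genes passed the test, -1.82 in Del(CBS1) (SE 0.47, adjusted p = 0.0442, 1.23% of all genes) and -1.46 in Del(CBS1-5) (SE 0.47, adjusted p = 0.0327, 14.8%). It was -1.44 in Ins(2xCBS-d4d8) (SE 0.47, adjusted p = 0.0211, 27.9%) and -1.16 in Del(sub-TAD1) (SE 0.42, adjusted p = 0.0253, 40%). With controls from the same library set, the change in Del(CBS1-2) was -2.2 (SE 0.52, adjusted p = 0.0250, 1% of all genes), and the other 4 were not past the threshold. All 4 were lost without wild-type replicate 4, the library with 30.4 FPKM. The call in Del(CBS1-2) was lost without mutant replicate 2, that in Ins(2xCBS-d4d8) without mutant replicate 1, and those in Del(CBS1) and Del(CBS1-5) without either mutant replicate. That in Del(CBS1-5) was also lost without wild-type replicate 2, and that in Del(sub-TAD1) without mutant replicate 2 or 3.

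Other values of these libraries moved with Fgf18. Wild-type replicate 4 had the highest level of the somite gene Meox1 among wild-type libraries at 96 h, 216 FPKM, against 67.5 to 116 FPKM in the other 3. The summed level of 7 somite markers was 114 to 387 FPKM in wild type, 108 to 133 FPKM in Del(CBS1), 70.8 to 83.1 FPKM in Del(CBS1-2), 78.1 to 95.1 FPKM in Del(CBS1-5), 66.1 to 182 FPKM in Ins(2xCBS-d4d8) and 108 to 434 FPKM in Del(sub-TAD1). In Del(sub-TAD1), replicate 1 had both the highest Meox1, 230 FPKM, and the highest Fgf18. The estimated age was 92 h to 100 h in wild type, 92 h in both libraries of Del(CBS1-2), 90 h and 91 h in Del(CBS1-5), 100 h and 93 h in Del(CBS1), 92 h and 100 h in Ins(2xCBS-d4d8), and 92 h, 91 h and 91 h in Del(sub-TAD1). In the time course Fgf18 rose from 84 h to 96 h and again to 108 h. The part of stage and somite cells in the differences was not tested.

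Fgf5 was higher in Del(sub-TAD1) at 96 h, at 1.76, 2.58 and 1.95 FPKM against 0.242, 0.227, 0.771 and 0.472 FPKM in wild type, a log2 change of 2.16 (SE 0.57, adjusted p = 0.00311) without overlap. Against controls of the same library set, which include time-course replicate 2 with 1.96 FPKM, it was not past the threshold. Pou5f1, a pluripotency gene, was at 59.7, 135 and 147 FPKM in these libraries, and at 27.2 to 80.9 FPKM in wild type. Etv4 was higher in Ins(2xCBS-d4d8) at 96 h, at 101.6 and 86.7 FPKM against 54.2, 57.7, 66.3 and 60.1 FPKM, a log2 change of 0.66 (SE 0.25, adjusted p = 0.0471). This call was lost in each fit that left out 1 library. No gene of the 10 passed limma's test in Del(CBS2) at 96 h, where 0.298% of all genes did, or in Del(d1-d4) at 96 h, where 1.19% did. At an unadjusted p under 0.05 there were 4 and 1, against 2559 and 2705 of the 17098 genes tested. The 4 in Del(CBS2) were Fgf4, Spry4, Fgf17, at 6.75 and 6.57 FPKM, and Etv4, at 40.1 and 38.7 FPKM, and all 4 lay below the controls in both libraries.

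At 120 h the differences fell on the 3 neighbours of chromosome 7 in several mutants. In Del(d1-d4) 4 of the 10 genes were lower, against 1.85% of all genes that passed the test. Fgf4 stood at 0.262 and 0.139 FPKM, against 1.05, 1.18, 3.11 and 1.43 FPKM in wild type, a log2 change of -2.48 (SE 0.35, adjusted p = 3.05e-05). Fgf15 stood at 1.23 and 0.654 FPKM, against 3.69, 3.24, 5.42 and 3.66 FPKM, a change of -2.01 (SE 0.29, adjusted p = 5.09e-05). Fgf3 was at 1.21 and 0.712 FPKM, against 2.63, 2.98, 4.30 and 2.46 FPKM, a change of -1.60 (SE 0.35, adjusted p = 0.00957), and Spry4 at 1.63 and 1.04 FPKM, against 2.43, 2.44, 4.06 and 3.44 FPKM, a change of -1.15 (SE 0.24, adjusted p = 0.00665). Both mutant libraries lay below all 4 controls for each gene. The calls of Fgf4 and Fgf15 held without any 1 library, and those of Fgf3 and Spry4 were lost without mutant replicate 2. With controls of the same library set Fgf15 passed, with a change of -2.04 (SE 0.39, adjusted p = 0.00346, 0.76% of all genes). The other 3 did not, at -2.51 for Fgf4 (SE 0.65, adjusted p = 0.0557), -1.69 for Fgf3 (SE 0.46, adjusted p = 0.0787) and -1.09 for Spry4 (SE 0.31, adjusted p = 0.111). Fgf17, at 6.57 and 6.51 FPKM, was below all 4 controls as well and did not pass the test. Summed neuromesodermal progenitor markers were at 71.9 to 83.2 FPKM in Del(d1-d4) and at 123 to 156 FPKM in wild type, and 6 endoderm markers at 13.3 to 16.8 FPKM and 20.7 to 188 FPKM. Their part was not tested. The estimated ages were 125 h and 126 h, and 125 h to 126 h in wild type.

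In Del(CBS4) at 120 h 5 of the 10 genes were lower, against 37.5% of all genes that passed the test. Fgf4 was at 0.288 and 0.147 FPKM, Fgf3 at 1.30 and 1.20 FPKM and Fgf15 at 1.84 and 1.62 FPKM, each below all 4 controls, with log2 changes of -2.41 (SE 0.35, adjusted p = 3.94e-06), -1.21 (SE 0.35, adjusted p = 0.00667) and -1.14 (SE 0.29, adjusted p = 0.00249). Against controls of the same library set, which are wild-type replicate 4 and the time course, these 3 changes were -2.87, -1.73 and -1.70, with adjusted p-values of 0.00255, 0.00979 and 0.00262, where 12.4% of all genes passed. Fgf17, at 8.49 and 4.94 FPKM, and Fgf18, at 10.3 and 6.51 FPKM, were also below all 4 controls, with changes of -1.27 (adjusted p = 0.00597) and -1.19 (adjusted p = 0.0450). They did not pass with controls of the same set, where the changes were -1.54 (SE 0.70, adjusted p = 0.153) and -1.39 (SE 0.52, adjusted p = 0.0740). The calls of Fgf4 and Fgf15 held without any 1 library. Without mutant replicate 2 the calls of Fgf3 and Fgf17 were lost, and that of Fgf18 was lost in 5 of the 6 fits that left out 1 library. The 2 mutant libraries had estimated ages of 114 h and 128 h. Their spinal cord markers summed to 79.9 and 122 FPKM, against 14.1 to 36.2 FPKM in wild type, and their endoderm markers to 6.34 and 7.74 FPKM, against 20.7 to 188 FPKM, and the part of these was not tested.

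Fgf15 differed in the other direction in Del(CBS1) and Del(CBS1-2). At 120 h it stood at 9.83 and 8.88 FPKM in Del(CBS1) and at 9.25 and 7.61 FPKM in Del(CBS1-2), above all 4 controls outside the time course, with log2 changes of 1.23 (SE 0.29, adjusted p = 0.0144) and 1.08 (SE 0.29, adjusted p = 0.0383). It was the 1 gene of the 10 called in either, where 2.1% and 2.35% of all genes passed. In the time course at 120 h it was at 10.5 and 5.11 FPKM. In these mutant libraries 8 pluripotency markers summed to 2.68 to 2.7 FPKM, against 11.3 to 122 FPKM in the 4 controls, 7 somite markers to 386 to 415 FPKM, against 432 to 514 FPKM, 5 cardiac markers to 1.08 to 1.72 FPKM, against 2.24 to 3.8 FPKM, and 5 endothelium markers to 6.98 to 10.6 FPKM, against 0.787 to 3.09 FPKM. Their part was not tested. Both calls were lost with controls of the same library set, where the changes were 1.20 and 1.04 (SE 0.39 for each), and without either mutant replicate. That in Del(CBS1-2) was also lost without wild-type replicate 4. Fgf3 and Fgf4, its neighbours, were at 3.88 and 3.68 FPKM and 1.24 and 1.10 FPKM in Del(CBS1), and did not pass the test. In Del(CBS1-5) at 120 h Fgf4 was higher, at 4.96 and 5.54 FPKM, a change of 1.70 (SE 0.35, adjusted p = 0.00118, 13.3% of all genes), which held without any 1 library and not with controls of the same set, where it was 1.67 (SE 0.65, adjusted p = 0.112). Fgf5, at 1.12 and 1.29 FPKM, passed only with controls of the same set, which leave out wild-type replicate 4, with a change of 2.25 (adjusted p = 0.0294, 7.85% of all genes). Pou5f1 was at 96.1 and 109 FPKM in these libraries and at 4.92, 4.95, 58.6 and 13.4 FPKM in wild type. No gene of the 10 passed limma's test at 120 h in Del(CBS2), Del(sub-TAD1) and Ins(2xCBS-d4d8), where 0.193%, 6.15% and 26.9% of all genes did. In these mutants 0, 1 and 2 of the 10 had an unadjusted p under 0.05, against 1811, 3215 and 6293 of the 17098 genes tested.

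**Figure D4:**
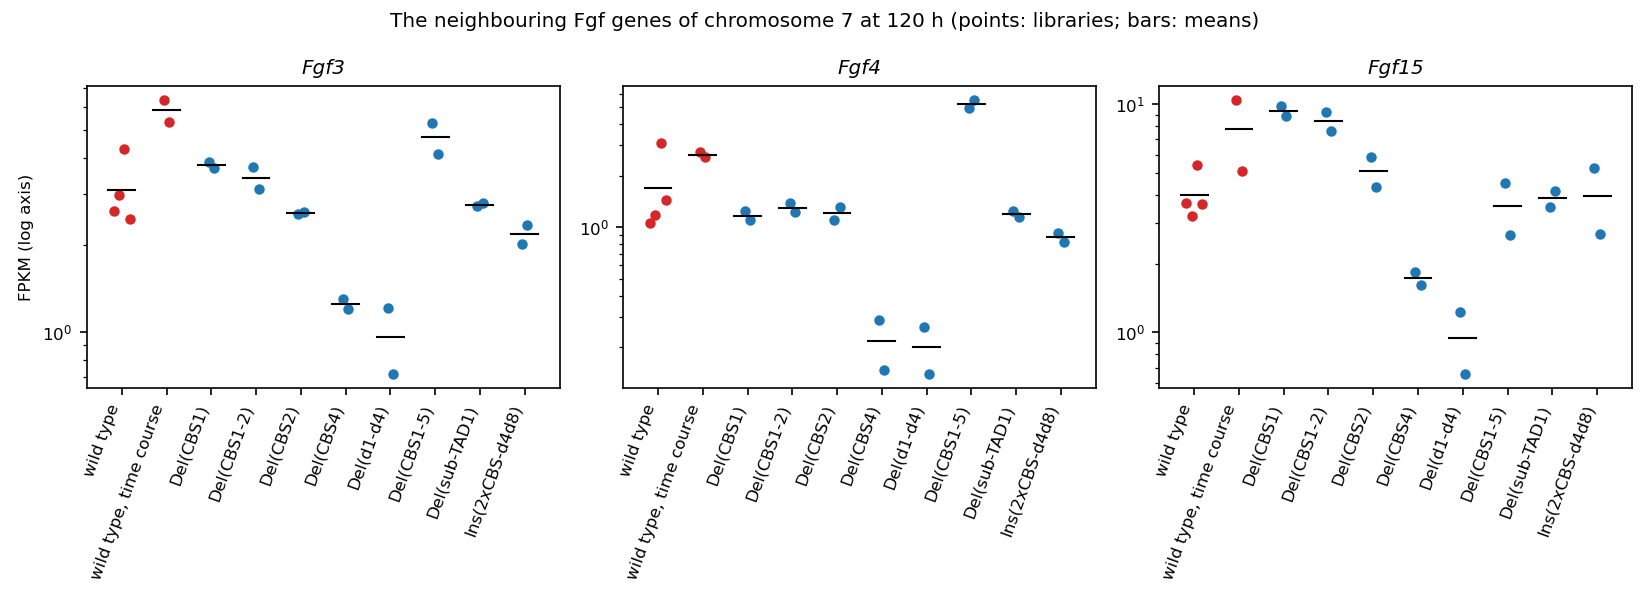
FPKM (log axis) of Fgf3, Fgf4 and Fgf15 at 120 h in wild type outside the time course, in the wild-type time course and in the 8 mutants, with 1 point per library and bars at the means. The libraries of Del(CBS4) and Del(d1-d4) are the lowest for all 3 genes, whereas Del(CBS1) and Del(CBS1-2) stand out for Fgf15 and Del(CBS1-5) for Fgf4.

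At 144 h 2 mutants were measured, and both have all their libraries in set 2, as have the controls. In Del(CBS1-5) 6 of the 10 genes were higher than in wild type outside the time course, against 23.7% of all genes that passed the test. With the time course alone as control 3 were higher (Fgf4, Fgf5 and Spry4) and 4 lower, where 33.6% of all genes passed. The 4 were Fgf17 (log2 change -3.70, adjusted p = 2.03e-08), Fgf8 (-1.58, adjusted p = 5.88e-04), Fgf3 (-1.65, adjusted p = 0.00159) and Fgf18 (-1.84, adjusted p = 0.00829). Fgf4 stood at 8.71 and 8.79 FPKM, against 0.0961 and 0.227 FPKM in wild type outside the time course and 2.65 and 2.64 FPKM in the time course. Its log2 change was 5.13 (SE 0.40, adjusted p = 4.39e-12) with the first controls, 1.69 with the time course alone and 3.41 with both, and it passed the test in each. Spry4, at 5.26 and 5.22 FPKM against 1.09 and 1.25 FPKM outside and 2.77 and 2.97 FPKM in the time course, had changes of 2.07 (SE 0.28, adjusted p = 5.13e-07), 0.85 and 1.46, again past the threshold in each. Fgf5 was at 4.45 and 4.73 FPKM, against 0.909 and 0.954 FPKM and 0.879 and 0.967 FPKM, with changes of 2.18 (SE 0.75, adjusted p = 0.0300), 2.2 and 2.19. Both mutant libraries lay above all 4 wild-type libraries for these 3 genes. For Fgf5 the call was lost in each fit that left out 1 library.

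For the other 3 genes called in Del(CBS1-5) the controls decided the direction. Etv4 was at 22.8 and 24.4 FPKM, which is above 6.36 and 7.83 FPKM outside the time course and below 33.3 and 30.3 FPKM within it. Its log2 change was 1.73 (SE 0.29, adjusted p = 2.11e-05) with the first and -0.43 with the second. Dusp6, at 44.1 and 45.7 FPKM, lay between 22.1 and 24.9 FPKM outside and 45.9 and 45.7 FPKM in the time course, with changes of 0.94 (SE 0.20, adjusted p = 4.81e-04) and -0.03. Fgf15, at 9.12 and 9.53 FPKM, was above 4.09 and 6.09 FPKM outside and below 13.5 and 13.0 FPKM in the time course, with changes of 0.89 (SE 0.33, adjusted p = 0.0495) and -0.50. The first of these was lost in 3 of the 4 fits that left out 1 library. With both wild-type series as controls Fgf17, at 1.32 and 3.09 FPKM, and Fgf18, at 3.27 and 3.65 FPKM, were lower, by log2 changes of -1.81 (adjusted p = 0.0342) and -1.43 (adjusted p = 0.0253), where 30.7% of all genes passed. Both Fgf18 values lay below all 4 wild-type libraries. Pluripotency markers summed to 386 and 388 FPKM in Del(CBS1-5), with Pou5f1 at 200 and 207 FPKM, against at most 43.7 FPKM in the 4 wild-type libraries. Markers of neuromesodermal progenitors were at 19.1 and 25.0 FPKM, against 39.1 to 166 FPKM, and those of presomitic mesoderm at 20.8 and 22.6 FPKM, against 46.8 to 92.8 FPKM. Spinal cord markers also lay below all wild-type libraries, and those of epiblast and primitive streak, somite, endoderm and endothelium above. The estimated ages were 138 h and 139 h. The part of markers and age in these differences was not tested.

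In Del(CBS4) at 144 h Fgf4, Fgf8 and Fgf17 were higher than in wild type outside the time course, where 2.05% of all genes passed the test. Fgf17 was at 9.42 and 8.32 FPKM against 1.56 and 2.34 FPKM, a log2 change of 2.15 (SE 0.42, adjusted p = 0.00227). Fgf4 was at 0.704 and 0.628 FPKM against 0.0961 and 0.227 FPKM, a change of 1.60 (SE 0.40, adjusted p = 0.0232), and Fgf8 at 15.5 and 15.8 FPKM against 5.61 and 6.36 FPKM, a change of 1.38 (SE 0.35, adjusted p = 0.0275). With the time course alone as control, 0 of the 10 genes were higher and 7 were lower, where 18.2% of all genes passed. All 3 genes changed sign, Fgf17 to -1.63 (adjusted p = 0.00550), Fgf4 to -1.84 (adjusted p = 0.00111) and Fgf8 to -0.55, which did not pass the test. The other 5 that were lower were Etv4 (-1.51, adjusted p = 3.10e-04), Spry4 (-1.20, adjusted p = 0.00230), Fgf15 (-1.31, adjusted p = 0.00492), Fgf3 (-1.41, adjusted p = 0.0126) and Dusp6 (-0.61, adjusted p = 0.0280). With both series as controls none of the 10 genes passed limma's test, where 3.42% of all genes did. For each of the 3 genes both mutant libraries lay between the 2 wild-type series. The call of Fgf8 was lost in each fit that left out 1 library, that of Fgf4 in 3 of 4, and that of Fgf17 without wild-type replicate 1 or mutant replicate 1. Their estimated ages were 136 h and 127 h, and the ages of the wild-type libraries outside the time course were 156 h and 157 h.

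**Figure D5:**
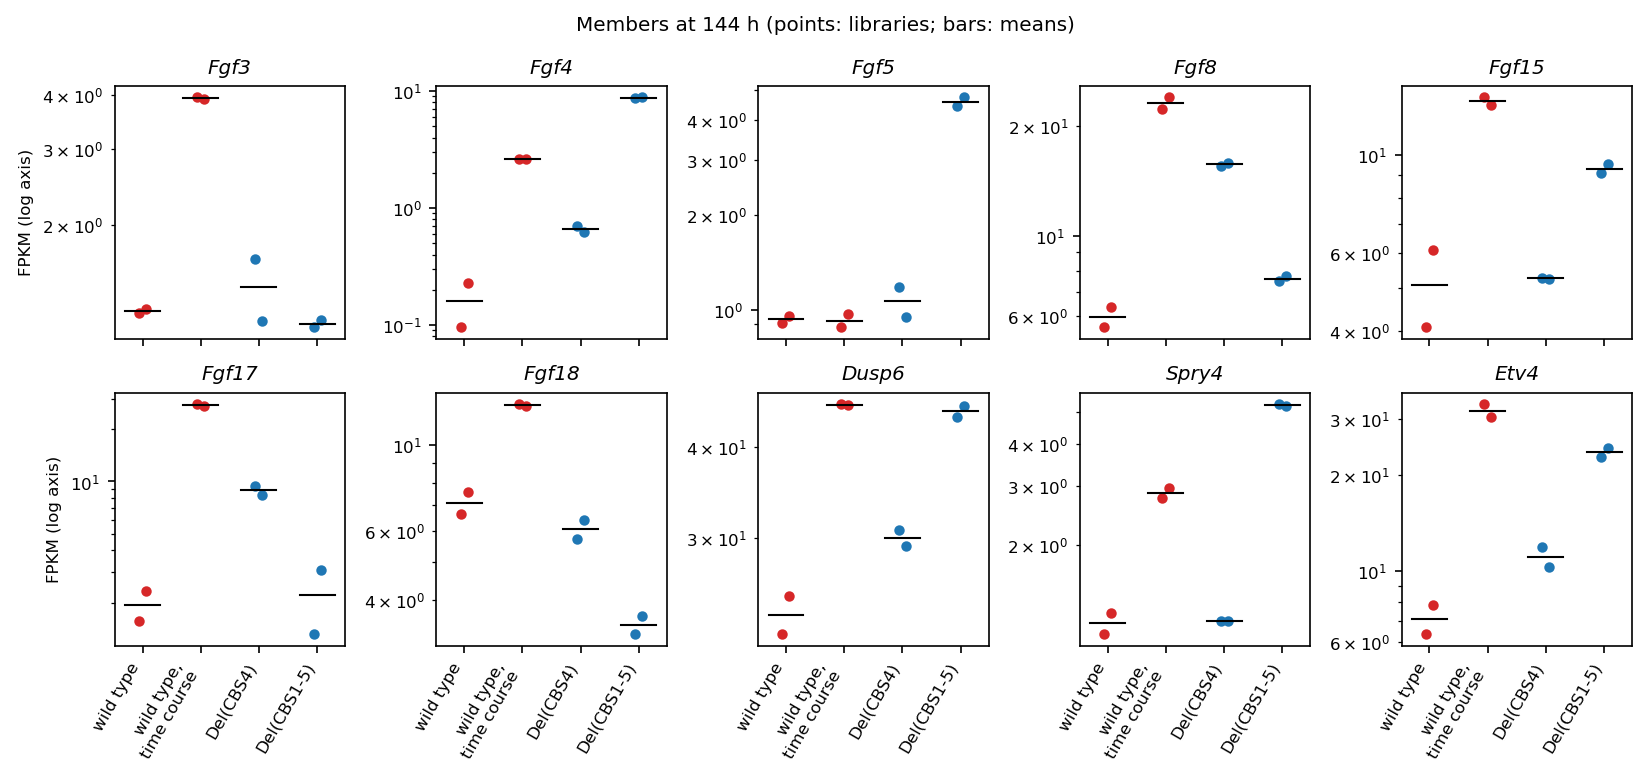
FPKM (log axis, a separate range for each gene) of the 10 genes at 144 h in wild type outside the time course, the wild-type time course, Del(CBS4) and Del(CBS1-5), with 1 point per library and bars at the means. The 2 wild-type series lie apart for the 8 genes that passed the direct test between them, against 21.5% of all genes. Del(CBS4) falls between the series for Fgf4, Fgf8, Fgf17, Dusp6 and Etv4, and Del(CBS1-5) is above both for Fgf4, Fgf5 and Spry4.

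The effect of a mutant was also compared between its stages. Of 9 such differences, 7 had no call among the 10 genes in limma's test. In these 7, 0 to 4 of the 10 genes had an unadjusted p under 0.05, against 834 to 5812 of the 17098 genes tested. Of all genes, 0.0526% passed in Del(CBS1), 0.0117% in Del(CBS2), 0.0234% in Del(d1-d4), 0.175% in Del(CBS1-2), 0.257% in Del(CBS1-5), 23.6% in Del(sub-TAD1) and 0.392% in Ins(2xCBS-d4d8). For Del(CBS1-5) the effect at 144 h was above that at 120 h for Fgf4 by 3.43 (SE 0.53, adjusted p = 4.01e-05), for Etv4 by 2.08 (SE 0.38, adjusted p = 4.58e-04), for Spry4 by 1.90 (SE 0.37, adjusted p = 9.02e-04) and for Dusp6 by 0.86 (SE 0.26, adjusted p = 0.0382) on the log2 scale, against 7.07% of all genes. For Del(CBS4) it was above that at 120 h for Fgf4 by 4.0 (SE 0.53, adjusted p = 3.79e-06), for Fgf17 by 3.43 (SE 0.55, adjusted p = 8.16e-05) and for Fgf8 by 2.10 (SE 0.47, adjusted p = 0.00340), against 8.27% of all genes. The call of Dusp6 was lost in 5 of the 6 fits that left out 1 library, and that of Fgf8 without mutant replicate 2. With the time course alone as control at 144 h none of the 7 passed either, where 20.9% and 24.7% of all genes did. The difference then turned to -0.01 for Fgf4, -0.08 for Etv4 and -0.10 for Dusp6 in Del(CBS1-5) and to -0.35 for Fgf17 in Del(CBS4), whereas other genes passed below 0, namely Fgf3, Fgf8, Fgf17 and Fgf18 in Del(CBS1-5) and Etv4 in Del(CBS4). With controls of the same library set none of the 7 was past the threshold, where 7.66% and 2.55% of all genes were. Del(CBS1-2) was made on Del(CBS1) cells, and these lines were compared directly. None of the 10 genes was called at 96 h or 120 h in limma's test, where 0.0175% and 0.0351% of all genes passed. None of the 10 had an unadjusted p under 0.05, against 400 and 319 of the 17098 genes tested. The widest difference was that of Fgf18 at 96 h, with a log2 change of -0.72 (SE 0.55).

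Among the 53 other pathway genes, the wild-type libraries outside the time course had 10 rises and 11 falls from 96 h to 120 h, where 27.1% of all genes passed, and 14 rises and 12 falls from 120 h to 144 h, where 38.2% did. The largest in the first interval were in Klb, a co-receptor (log2 change 2.98), and Dusp9 (-1.68), and in the second in Fgfr3 (4.19) and Klb (-2.04). In the mutants the counts ran from none in Del(CBS1) at 96 h, Del(CBS1-2) at 120 h, Del(d1-d4) at 96 h and Del(CBS2) at both stages to 14 rises and 4 falls in Del(CBS1-5) at 144 h, where 23.7% of all genes passed. There 11 of the 23 feedback inhibitors and targets were higher and none lower, with the largest rise in Dusp9 (log2 change 1.96), and 2 receptors were lower, among them Fgfr3 (-2.51). In Del(CBS4) at 120 h 9 genes were higher and 6 lower, against 37.5% of all genes that passed, with Fgfr3 (2.75) and Phlda1 (-1.09) at the extremes, and in Del(d1-d4) at 120 h the 1 call was Etv5, with a change of -0.61. In Del(sub-TAD1) at 96 h, where 40% of all genes passed, 14 were higher and 2 lower, with Fos (2.07) and Fgf9 (-1.20) at the extremes. The median log2 change of the 53 genes was 0.20 in Del(CBS1-5) at 144 h and 0.18 in Del(sub-TAD1) at 96 h, whereas the median over all genes tested lay between -0.06 and 0.06 in the 17 comparisons. These calls were made with the wild-type controls outside the time course, the only controls used for the 53 genes. Against the time course, 1 of the 53 genes was higher and 17 lower in these controls at 144 h (median log2 change -0.13, 21.5% of all genes passed). Of the 23 feedback inhibitors and targets, 10 were lower and 0 higher. At 96 h 1 of the 53 was higher and 14 lower (median -0.18, 32.3% of all genes). The part of this in the mutant counts was not tested.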

How the data were processed

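The authors prepared stranded poly-A libraries from pooled stembryos, sequenced paired reads of 75 bases and trimmed adapters (cutadapt 1.16). Alignment on mm10 used STAR 2.7.7a and an annotation based on Ensembl 102. The methods state that uniquely mapped reads were kept (bamFilter 2.4.1) and passed to Cufflinks 2.2.1. Whether this held alike for both library sets could not be checked. The deposited values are FPKM per gene, which the authors had scaled to mapped fragments and transcript length. Tools and builds are as the methods and the submitters' processing notes give them. Lines of 25 identifiers listed more than once were summed, and 14 genes had a failed estimate in at least 1 library.

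Conditions and replicate numbers came from the sample titles. All 61 libraries were fitted in 1 model with limma 3.58.1 (R 4.3.3) on log2(FPKM + 0.1), with 1 coefficient for each of 28 conditions, over the 17098 genes of 55052 with a mean of at least 1 FPKM in at least 1 condition. The pseudocount of 0.1 understates changes of low genes. Tests were two-sided, and in each comparison the Benjamini-Hochberg adjustment covered every gene in the fit. The fit was tested on simulated data that held no difference between library sets or wild-type series, so that test does not cover these. No pairing of libraries by replicate number was found, and none was used. Library sets were to be taken from the sum of all mitochondrial mRNAs, which overlapped, and were taken from 4 of them after the data had been seen. Depth was inferred from the confidence bounds of FPKM. Of low values, 65.3% to 69.0% in set 1 and 93.1% to 94.7% in set 2 were within 0.02 of a whole fragment. Depth and the limit of 3 fragments are therefore less certain in set 1. Age was the nearest point, in steps of 1 h, on the time course interpolated over 1000 genes. Tables were handled with Python 3.11.15, pandas 2.3.3, numpy 2.4.6 and data.table (version 1.17.8), and figures drawn with matplotlib 3.10.9.

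The 10 genes, the pathway list and the marker lists were chosen with earlier results of these data known. Named are the 10 genes, the receptors, the pathway gene with the largest rise and fall among those past the threshold in each comparison, and up to 2 genes most like each member (that result for Fgf18 is not reported here). Alternatives were pseudocounts of 1 and 0.01 FPKM, no filter, a filter at 5 FPKM, upper-quartile and quantile normalisation, a trended and robust variance, the compared groups alone, each replicate left out, a replicate block, and other controls. The controls at 144 h from the time course alone, the fit without time-course replicate 2 at 72 h and 96 h, and the direct comparison of the wild-type series were chosen after seeing the data.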

Additional observations from a re-analysis of the deposited data

Results flagged for a closer look

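Fgf17 in wild-type replicate 3 at 120 h, outside the time course, stood apart from the other 3 libraries, at 24.5 FPKM against 12.8 to 14.6 FPKM. The gap to the next library was 0.844 of the range of the 4, above Dixon's 95% critical value for 4 samples. Of 20 groups of 4 tested, this was the 1 so marked, and chance marks about 1 in 20. Pou5f1 was at 58.6 FPKM in this library, against 4.92 to 13.4 FPKM in the other 3.

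The change from 120 h to 144 h differed between the wild-type libraries outside the time course and those in it for 5 genes in limma's test of the difference. The difference on the log2 scale was -2.70 for Fgf4, -1.47 for Fgf8, -3.28 for Fgf17, -0.92 for Dusp6 and -2.21 for Etv4. In the fits that left out 1 library, those of Fgf4, Fgf17 and Etv4 stayed past the threshold in 6 of 6, that of Dusp6 in 4 of 6 and that of Fgf8 in 2 of 6.

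The effect of a mutant against wild type outside the time course differed between 144 h and 120 h for 7 gene and mutant pairs in limma's test of the difference. In Del(CBS1-5) the later effect exceeded the earlier one by 3.43 for Fgf4, 0.86 for Dusp6, 1.90 for Spry4 and 2.08 for Etv4 on the log2 scale. In Del(CBS4) it did so by 4.0 for Fgf4, 2.10 for Fgf8 and 3.43 for Fgf17. Each of these rests on the 2 wild-type libraries at 144 h outside the time course, in which 8 of the 10 genes were lower than in the time course, and none passed with controls of the same library set.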

How the results depend on the processing

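Of the 22 calls between neighbouring stages, 14 were made after quantile normalisation, 7 with the compared groups alone and 8 to 17 when a replicate was left out, the lowest without time-course replicate 2. The 7 calls from 96 h to 120 h in wild type outside the time course were 7 in every fit that left out a replicate, and the 8 from 120 h to 144 h were 5 with the compared groups alone and 6 to 9 with a replicate left out. The 28 mutant calls were 6 with the compared groups alone, 11 with controls of the same library set, 16 with all wild-type controls of the stage, and 12 to 28 with a replicate left out (17 without mutant replicate 1, 12 without mutant replicate 2). The 7 stage differences were 3, 0, 1 and 5 to 8 under these settings. Controls of the same library set and all wild-type controls of the stage join both wild-type series at 144 h, so their difference enters the spread. The F test called 10 genes and the comparison of Del(CBS1-2) with Del(CBS1) 0 in every fit that left out a replicate. The replicate block gave 27 calls between stages, 9 from 120 h to 144 h in wild type, 32 in mutants and 9 stage differences, and 3 of 88 single calls were lost with it. Same-numbered libraries did not deviate together (r from -0.09 to 0.13 over 28 time-course pairs and from -0.06 to 0.08 over 35 mutant pairs), so the numbers do not pair them.

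Directions turned with time-course controls at 144 h for Fgf15 (-0.50), Dusp6 (-0.029) and Etv4 (-0.43) in Del(CBS1-5), for Fgf4 (-1.84), Fgf8 (-0.55) and Fgf17 (-1.63) in Del(CBS4), and for the stage differences of Fgf4 (-0.013), Dusp6 (-0.10) and Etv4 (-0.075) in Del(CBS1-5) and Fgf17 (-0.35) in Del(CBS4). Fgf4 in Del(CBS4) at 144 h was also at -0.12 with controls of the same library set and with all wild-type controls. Dusp6 in wild type outside minus in the time course at 96 h ran from -0.069 without time-course replicate 2 to 1.06 without replicate 1. Of 88 single calls, 87 held with a pseudocount of 1 FPKM, 78 with 0.01 FPKM, 71 without a filter, 87 with a filter at 5 FPKM, 82 with upper-quartile scaling, 66 with quantile normalisation, 88 with a trended and robust variance and 34 with the compared groups alone, where the spread comes from fewer libraries. The stage of the highest mean moved without replicate 2 for Fgf3 and Etv4 (84 h to 96 h) and Fgf17 (108 h to 144 h), and without replicate 1 for Fgf8 (72 h to 84 h). With 2 libraries in most groups, the spread is set by the fit over all 61.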
